A study of Sus scrofa with 85 samples.

Results

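The non-infarcted, lateral wall of the left ventricle was compared between the first hours of a myocardial infarction and 14 days later, to ask for an acute response outside the infarct. Of the 85 libraries of the series, 15 came from this region at these timepoints, and 12 had a total of at least 1000000 counts and between 7% and 60% of their counts in their 10 most counted genes. These 12 were 3 libraries of 0–1 h, 3 of 1–3 h and 6 of Day 14. The 0–1 h and 1–3 h libraries were pooled as the 6 early libraries. The rule used no fold change, but its limits were set by an earlier analysis of these data that had seen the count profiles.

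Micro-endomyocardial biopsies (micro-EMB, very small pieces of heart muscle taken through a catheter) came from 3 female farm pigs of a mixed Yorkshire and Swedish breed, of which the labels give no age. In each animal a balloon closed the distal left anterior descending artery for a time and was then deflated. The 0–1 h biopsies were taken during the closure and the 1–3 h biopsies after the artery was open again. All sessions, Day 14 included, were done under sedation and general anaesthesia, and amiodarone was given at the intervention but is not described for Day 14. No animal went without an occlusion, so hours of catheterisation, anaesthesia, drugs and repeated biopsy cannot be told apart from the infarction. The lateral position was judged by fluoroscopy, which does not show the ischaemic area. The study itself judged that some biopsies of this region, from a single animal, were probably taken in or near that area, so non-infarcted is a label of the catheter position and not a checked state of the tissue. The same animals gave both groups. Swine 1644 gave 3 of the 6 early libraries (1 of 0–1 h and 2 of 1–3 h), swine 5385 gave 2 (1 of each) and swine 1640 gave 1 (0–1 h). Each swine gave 2 Day 14 libraries. Libraries of 1 swine are biopsies of 1 heart, so a spread over libraries is partly a spread within a heart.

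Total counts ran from 5184915 to 10888848 with a median of 8926756. The 10 most counted genes held 11.7% to 35.4% of the counts, and 17188 to 25322 genes had at least 1 count. The library of 1–3 h replicate 4 (swine 1644) stood apart. Its summed cardiomyocyte markers, 15 of 20 found by symbol, were at 1704 CPM (counts scaled to a library total of 1000000), against 16291 CPM in 0–1 h replicate 1, 53319 to 68959 CPM in the other 4 early libraries and 12679 to 84014 CPM at Day 14. Its 12 fibroblast markers summed to 22398 CPM, against 2771 to 10387 CPM in the other early libraries and 2609 to 14715 CPM at Day 14. POSTN, a defining marker of activated fibroblasts, was listed at 0 in all 85 libraries of the series, so its 0 may come from the annotation or counting. The GFAP transcript, a filament of glial cells, was at 752 CPM in this library and at 2.02 to 9.17 CPM in the other 11. APOA1 was at 2010 CPM there and at 13.5 to 73.4 CPM elsewhere. Results are therefore also given without this library. In bulk tissue, fewer cells of a type and less RNA per cell cannot be told apart. The summed erythroid markers (8 of 10 found, with ALAS2 and HBM at 0) were at 3120 to 6323 CPM in the 4 libraries of swine 5385 and at 13.6 to 126 CPM in the other 8. HBB made up most of the high sums. Its mean was 6.72 log2 CPM early and 7.71 at Day 14, against at most 2.03 for SLC4A1, EPB42 and CA1. Whether these sums reflect red cell content was not tested.

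Immediate-early genes are the first to be transcribed when a cell is stimulated, because the factors that switch them on are already present and need only be phosphorylated. Many encode transcription factors such as FOS, EGR1 and MYC. Others encode brakes on the same signals, such as DUSP1, which dephosphorylates MAP kinases, and ZFP36, which speeds the decay of cytokine mRNA. In heart muscle they respond to stretch, ischaemia, catecholamines and tissue injury, and their targets include the urokinase gene PLAU and the chemokine CCL2.

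Promoter sequences are shown for 3 of these genes because list members lay high together in the same libraries, and because cyclic AMP response elements and serum response elements are textbook routes to immediate-early transcription. Each run holds the 250 bases before the RefSeq gene start on Sscrofa11.1, read in the direction of the gene. Capitals mark the element TGACGTCA (CRE) in DUSP1 and a pair of CArG boxes that touch each other in DUSP5. The MYC window held none of the motifs searched. The windows lie at chr16:51457674-51457923 (+) for DUSP1, chr14:120906090-120906339 (+) for DUSP5 and chr4:12460361-12460610 (−) for MYC.
DUSP1: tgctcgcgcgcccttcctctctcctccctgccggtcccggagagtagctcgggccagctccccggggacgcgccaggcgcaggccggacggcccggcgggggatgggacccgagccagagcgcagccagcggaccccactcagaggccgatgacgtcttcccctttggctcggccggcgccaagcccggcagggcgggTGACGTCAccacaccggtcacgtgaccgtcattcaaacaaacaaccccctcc
DUSP5: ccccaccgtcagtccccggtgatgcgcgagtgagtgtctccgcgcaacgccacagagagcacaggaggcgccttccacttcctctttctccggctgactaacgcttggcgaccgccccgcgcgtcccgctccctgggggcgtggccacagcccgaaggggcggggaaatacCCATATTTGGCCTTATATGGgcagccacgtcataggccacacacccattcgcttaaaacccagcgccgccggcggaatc
MYC: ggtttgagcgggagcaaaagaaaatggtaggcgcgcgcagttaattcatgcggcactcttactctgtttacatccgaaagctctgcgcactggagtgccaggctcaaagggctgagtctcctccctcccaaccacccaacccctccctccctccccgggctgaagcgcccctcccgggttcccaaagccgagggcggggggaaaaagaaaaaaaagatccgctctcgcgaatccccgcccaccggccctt
The DUSP1 element began 52 bases before the start, and the DUSP5 boxes began 79 and 69 bases before it. Both strands were searched for TGACGTCA, for the AP-1 motif TGANTCA and for the CArG box (its usual form, CC and GG around a run of A and T), and no motif contains another. Of 19528 promoters of this length, 1.7% held TGACGTCA, 5.25% the AP-1 motif and 1.31% a CArG box. Of the 30 promoters matched for the immediate-early list, 1 (3.33%, DUSP1), 1 (3.33%, KLF10) and 2 (6.67%, DUSP5 and IER2) did. These are matches of letters in a short window and say nothing of binding.

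Comparing the 6 early with the 6 Day 14 libraries, no gene of 18795 tested passed an adjusted p of 0.05 (edgeR, 0% called, smallest adjusted p = 0.418). Among higher genes, PLAU, MOB3C, DUSP1, ADAMTS1, HOOK2, ERRFI1, MYC, CSRNP1 and ANGPTL4 were 9 of the 10 with the smallest p. DUSP1, MYC and CSRNP1 are on the immediate-early list, PLAU starts clot lysis, ADAMTS1 is a matrix protease, and ERRFI1 dampens EGF receptor signalling. In 8 of these 9, all but HOOK2, the early libraries of swine 1644 were the highest 3 of the 12. An unadjusted p under 0.05 was reached by 1654 genes where 940 would be expected by chance. Of these, 1146 were higher early (6.1% of those tested) and 508 lower (2.7%). This fit had no term for the swine and took biopsies of 1 heart as independent. With the swine as a block in edgeR, 577 genes reached it, fewer than the 940. The excess was also absent with the libraries of swine 1644 left out, a fit with fewer libraries and fewer hearts. Fits with fewer such genes than expected by chance are weak tests, so they do not decide whether there was a general early response. The median log2 fold change of all genes was −0.08.

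MYC, a transcription factor of growth and metabolism, was at 184, 116.8 and 159 CPM in the early libraries of swine 1644 (0–1 h replicate 1, then 1–3 h replicates 4 and 5). It was at 5.19 CPM in the early library of swine 1640 and at 8.36 and 4.81 CPM in those of swine 5385. The 6 Day 14 libraries lay between 3.71 and 6.54 CPM, so the 3 early libraries of swine 1644 stood above all of them and 2 of the other 3 were inside their range. The log2 fold change was 4.22 ± 0.90 (SE, 6 libraries against 6, edgeR adjusted p = 0.418).

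FOS, a subunit of the AP-1 transcription factor, was at 317, 154.8 and 226 CPM in swine 1644, at 27.5 CPM in swine 1640 and at 4.02 and 4.46 CPM in swine 5385. Day 14 lay between 0.825 and 10.1 CPM. Here the early library of swine 1640 was also above all Day 14 libraries, while those of swine 5385 were inside the range. FOSB, its close relative, was at 712 CPM in 0–1 h replicate 1 and at 58.8 and 78.8 CPM in the 1–3 h libraries of the same swine. It was at 41.8 CPM in swine 1640, at 2.25 and 1.46 CPM in swine 5385, and between 0.413 and 7.41 CPM at Day 14. The log2 fold changes were 4.60 ± 1.02 for FOS and 5.40 ± 1.28 for FOSB (SE).

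DUSP1 was at 111.9, 192 and 72.7 CPM in swine 1644, at 8.85 CPM in swine 1640 and at 18.0 and 7.98 CPM in swine 5385, against 3.14 to 8.14 CPM at Day 14. All early libraries but 1–3 h of swine 5385 were above every Day 14 library, that of swine 1640 by little. The gene spans chr16:51457924-51461095 (+). EGR1, a zinc finger factor induced through serum response elements, was at 449, 126 and 623 CPM in swine 1644, 38.5 CPM in swine 1640 and 25.4 and 19.7 CPM in swine 5385. Its Day 14 values ran from 5.82 to 47.0 CPM, and the highest was a library of swine 1640.

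THBS1, a matricellular platelet protein, was at 1568, 3014 and 1437 CPM in swine 1644, at 91.0 CPM in swine 1640 and at 131.1 and 110.7 CPM in swine 5385, against 43.4 to 109.5 CPM at Day 14. CCL2, the chemokine that draws monocytes, was at 180, 331 and 78.7 CPM in swine 1644, at 5.54 CPM in swine 1640, at 8.20 and 7.73 CPM in swine 5385 and between 4.52 and 10.4 CPM at Day 14. For both genes the early libraries of swine 1644 stood far above Day 14, and those of swine 1640 and 5385 lay within its range or close to its upper end.

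**Figure D1:**
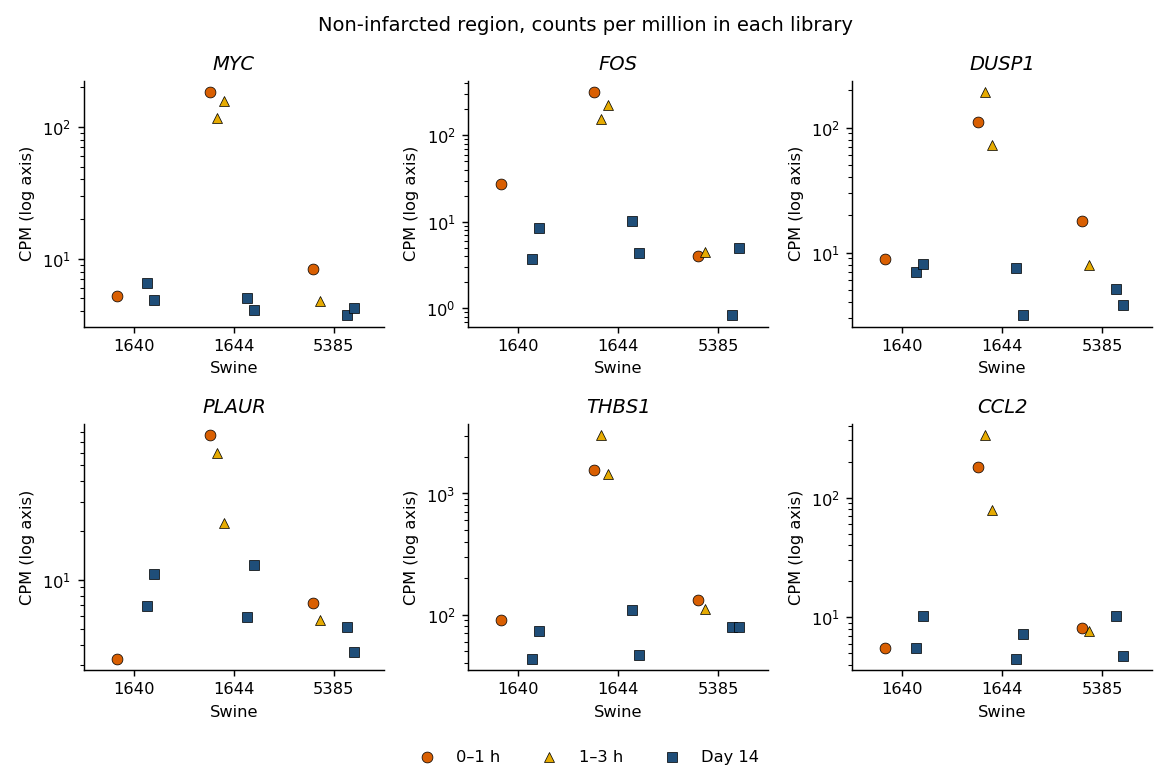
CPM (log axis) of MYC, FOS, DUSP1, PLAUR (the urokinase receptor), THBS1 and CCL2 in each of the 12 libraries, by swine, with 1 point per library (circles 0–1 h, triangles 1–3 h, squares Day 14). The 3 early points of swine 1644 lie above every Day 14 point in all 6 panels, while the early points of swine 1640 and 5385 lie within or near the Day 14 range, apart from FOS in swine 1640 (27.5 CPM) and DUSP1 in 0–1 h of swine 5385 (18.0 CPM).

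Of the 36 entries of the immediate-early list, 33 were found by symbol and 31 were tested. JUNB and IER3 did not pass the filter because they were listed at 0 in all 85 libraries. All 31 had a positive log2 fold change and an unadjusted p under 0.05, none passed the adjusted threshold, and their median was 3.25 against −0.08 for all genes. With the libraries of swine 1644 left out, 25 of 31 were higher, 1 had an unadjusted p under 0.05 and the median was 0.15. With the swine as a block in edgeR all 31 were higher and the median was 1.84. There 18 reached an unadjusted p under 0.05, against 2% of all genes. Counts summed per swine with the block gave 31 higher, 23 at that p (0.988% of all genes), 2 called and a median of 1.55. Without 1–3 h replicate 4 the median was 2.89, with 29 of 31 at an unadjusted p under 0.05. The mean log2 CPM over the 31 genes was 6.97, 5.96 and 6.55 in the early libraries of swine 1644, 3.63 in that of swine 1640, 2.98 and 2.63 in those of swine 5385 and 2.47 to 3.08 at Day 14. All early libraries of swine 1644 and the one of swine 1640 were above the Day 14 range, and those of swine 5385 were inside it. Against the Day 14 libraries of the same heart (2.47 and 2.52), both early libraries of swine 5385 were higher.

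Other tools gave other counts. DESeq2 called 130 genes of 10377 with an adjusted p, 1.17% of them higher early and 0.0867% (9 genes) lower, and these included 22 of the 31 immediate-early genes. With the swine as a block in edgeR no gene was called, and DESeq2 with the same block called 10. Of these PLAU, MOB3C, DUSP1, HOOK2, ANGPTL4, HBEGF, BICDL2 and ENSSSCG00000000521 were higher, RPH3AL and CDK19 were lower, and all 10 were also among the 130. DESeq2 called 47 genes without 1–3 h replicate 4 and 1 gene, ADAMTS20, without swine 1644.

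Since the early libraries came unequally from the swine, the time difference was also taken within each swine, in 1 fit with a term for each swine at each time, a choice made after the values were seen. Within swine 1644 (3 early libraries against 2), 63 genes rose (0.335% of those tested) and 1 fell (0.00532%) at an edgeR adjusted p of 0.05 or less. Within swine 1640 (1 against 2) and swine 5385 (2 against 2) none rose or fell (0% in each). At an unadjusted p under 0.05 edgeR had 0.176% of the genes higher and 0.771% lower within swine 1640, and 1.38% higher and 0.0585% lower within swine 5385. The 3 contrasts share 1 estimate of the spread, so the lone early library of swine 1640 is assumed to vary like the rest, and the p-values cover the spread between biopsies of these hearts and not between animals.

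Within swine 1644, 15 of the 31 immediate-early genes rose and their median log2 fold change was 4.12. MYC rose by 5.24 ± 0.50 on the log2 scale (edgeR adjusted p = 0.0038), FOSL2 by 4.05 ± 0.51 (adjusted p = 0.0119), CSRNP1 by 4.52 ± 0.57 (adjusted p = 0.0119) and EGR1 by 5.28 ± 0.94 (adjusted p = 0.0435). The other members called were GADD45B, MAFF, SIK1, DUSP1, ZFP36, IER5, FOS, NR4A3, NR4A1, KLF6 and CEBPB. The same swine showed PLAU higher by 4.17 ± 0.53 (adjusted p = 0.0119), CCL2 by 5.31 ± 0.78 (adjusted p = 0.0215) and THBS1 by 4.85 ± 0.79 (adjusted p = 0.0346). Further called genes encode the leukocyte adhesion molecules ICAM1 (2.89) and CD44 (3.04), the NF-kB subunit RELB (2.56) and BCL3 (3.75), which binds NF-kB subunits, the oncostatin M receptor OSMR (3.57), the hyaluronan synthase HAS1 (4.69) and the glycolytic regulator PFKFB3 (3.39). HPGD, which inactivates prostaglandins, fell by 2.53. Without 1–3 h replicate 4 the contrast within swine 1644 called 76 genes, all higher, of which 54 were among the 64, and 17 immediate-early genes were called with a median of 4.10. The 31 genes had a median log2 fold change of 0.44 within swine 1640 and 0.26 within swine 5385.

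Whether the time difference itself differed between swine was tested as an interaction. No gene passed (edgeR, smallest adjusted p = 0.133), and 740 genes (3.94%) had an unadjusted p under 0.05. MYC and ERRFI1 had the smallest p (adjusted p = 0.133), and RDH10, which makes retinal for retinoic acid synthesis (adjusted p = 0.206), and BCL3 (adjusted p = 0.254) were also among the smallest 5. RDH10 was at 448, 277 and 155.7 CPM in the early libraries of swine 1644, at 8.41 to 12.1 CPM in the other 3 and at 7.83 to 14.1 CPM at Day 14. The outcome depended on the settings. Without the filter on low counts edgeR called 29 genes, 10 of them immediate-early genes and MYC among them, and the DESeq2 likelihood ratio test called 132, of which 20 were immediate-early genes.

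Some genes were higher early in every swine. By the means within swine, 1957 genes (10.4%) were higher and 2269 (12.1%) lower early in all 3, so this pattern is common among all genes, and 14 of the 31 immediate-early genes had it. Of genes whose 6 early libraries all lay above all 6 Day 14 libraries there were 22 (0.117%), and 24 (0.128%) had them all below. Among 18795 genes some would be fully separated by chance alone, and these counts were not tested against that.

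MOB3C, a kinase-binding protein of the MOB family, was at 42.3, 25.3 and 38.0 CPM in swine 1644, at 17.8 CPM in swine 1640 and at 18.8 and 17.7 CPM in swine 5385. The Day 14 libraries lay between 7.81 and 12.8 CPM, below every early library. Its log2 fold change was 1.47 ± 0.30 (SE, edgeR adjusted p = 0.418) and 0.79 without swine 1644. HOOK2, an adaptor between microtubule motors and cargo, was at 52.2 to 114.8 CPM in swine 1644, 65.0 CPM in swine 1640 and 54.9 and 32.4 CPM in swine 5385, against 13.2 to 32.9 CPM at Day 14. One early library, 1–3 h of swine 5385, overlapped the highest Day 14 library. The log2 fold change was 1.60 ± 0.33 and 1.16 without swine 1644. HOOK2 lies at chr2:66227562-66239671 (+), 8126 bases from JUNB (chr2:66214086-66219435, −), which was listed at 0 throughout, and reads were counted without regard to strand. PLAU, the urokinase-type plasminogen activator, was at 73.1, 77.4 and 90.2 CPM in swine 1644, 6.02 CPM in swine 1640 and 7.56 and 10.99 CPM in swine 5385. Its Day 14 values of 1.86 to 5.58 CPM were below all early values. The log2 fold change was 3.46 ± 0.70 and 0.99 without swine 1644. PLAU (chr14:76629313-76635173, +) overlaps CAMK2G on the opposite strand.

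**Figure D2:**
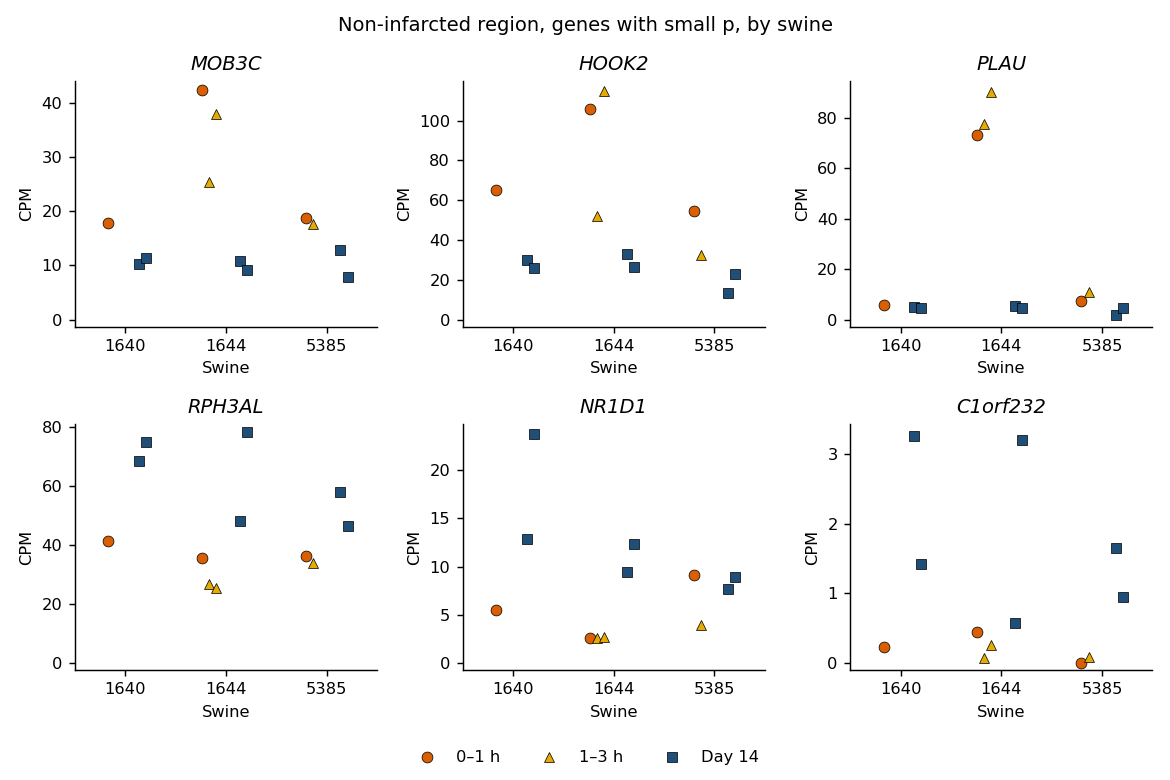
CPM (linear axis) of MOB3C, HOOK2, PLAU, RPH3AL, NR1D1 and C1orf232 in each of the 12 libraries, by swine, with 1 point per library (circles 0–1 h, triangles 1–3 h, squares Day 14). Early points of MOB3C (17.7 to 42.3 CPM) lie above all its Day 14 points, and those of RPH3AL (25.4 to 41.2 CPM) lie below all its Day 14 points.

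Among genes that were lower early, RPH3AL, C1orf232, NR1D1, ESPL1, GAS2, LBX2, FRS3, KLHL33 and PLA2R1 were 9 of the 10 with the smallest p, and none was called. RPH3AL, a partner of Rab GTPases in exocytosis, was at 35.4, 26.6 and 25.4 CPM in swine 1644, at 41.2 CPM in swine 1640 and at 36.4 and 33.7 CPM in swine 5385. Day 14 lay higher, between 46.5 and 78.2 CPM, with no overlap. The log2 fold change was −0.81 ± 0.21 (SE, edgeR adjusted p = 0.418) and −0.73 without swine 1644. NR1D1, the clock repressor REV-ERBα, was at 2.63, 2.58 and 2.65 CPM in swine 1644, 5.54 CPM in swine 1640 and 9.17 and 3.95 CPM in swine 5385, against 7.63 to 23.7 CPM at Day 14, and 1 early library of swine 5385 overlapped the Day 14 range. Its log2 fold change was −1.44 ± 0.41, and it overlaps THRA on the opposite strand (chr12:22263549-22274131, +). LBX2, a homeobox gene, was at 0 in 5 early libraries and at 0.0859 CPM in the other, with 0 to 1.55 CPM at Day 14. PLA2R1, a phospholipase A2 receptor, was at 5.41 to 14.5 CPM early and at 14.3 to 24.6 CPM at Day 14, a log2 fold change of −0.99 ± 0.30 (adjusted p = 0.436).

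Most of these lower genes were higher still in the libraries that were left out. The 3 libraries of 1–3 h that the rule left out had 1.42% to 2.98% of their counts in the 10 most counted genes and 25605 to 25746 genes with a count. In CPM without scaling factors, RPH3AL was at 150.7 to 157.6 in them, against medians of 35.3 early and 74.5 at Day 14. GAS2, a substrate of caspases, was at 105 to 111.2 against 8.47 and 27.2, and KLHL33 at 9.07 to 9.85 against 0.255 and 2.30. Of the 508 genes that were lower early at an unadjusted p under 0.05, 452 (89%) were higher in all 3 left-out libraries than in any of the 12, against 48.7% of all genes tested and 1.22% of the 1146 higher genes. Of the named genes, 7 of the 10 lower and 0 of the 10 higher did so. Among the 12, Day 14 replicates 2, 3 and 6 and 1–3 h replicate 4 had the lowest share in the top 10 genes (11.7%, 15.4%, 13.8% and 12.8%). RPH3AL was at 94.9 to 126.6 in those 3 Day 14 libraries but at 35.0 in 1–3 h replicate 4, where GAS2 was at 5.71 and KLHL33 at 0.2003, so this early library had low values in spite of its low share. NR1D1 was at 8.02 to 10.4 in the left-out libraries, below its Day 14 median of 14.1. With that share as a covariate the log2 fold change of RPH3AL was −0.75 and that of GAS2 −1.02. The part of the count profile was otherwise not tested.

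**Figure D3:**
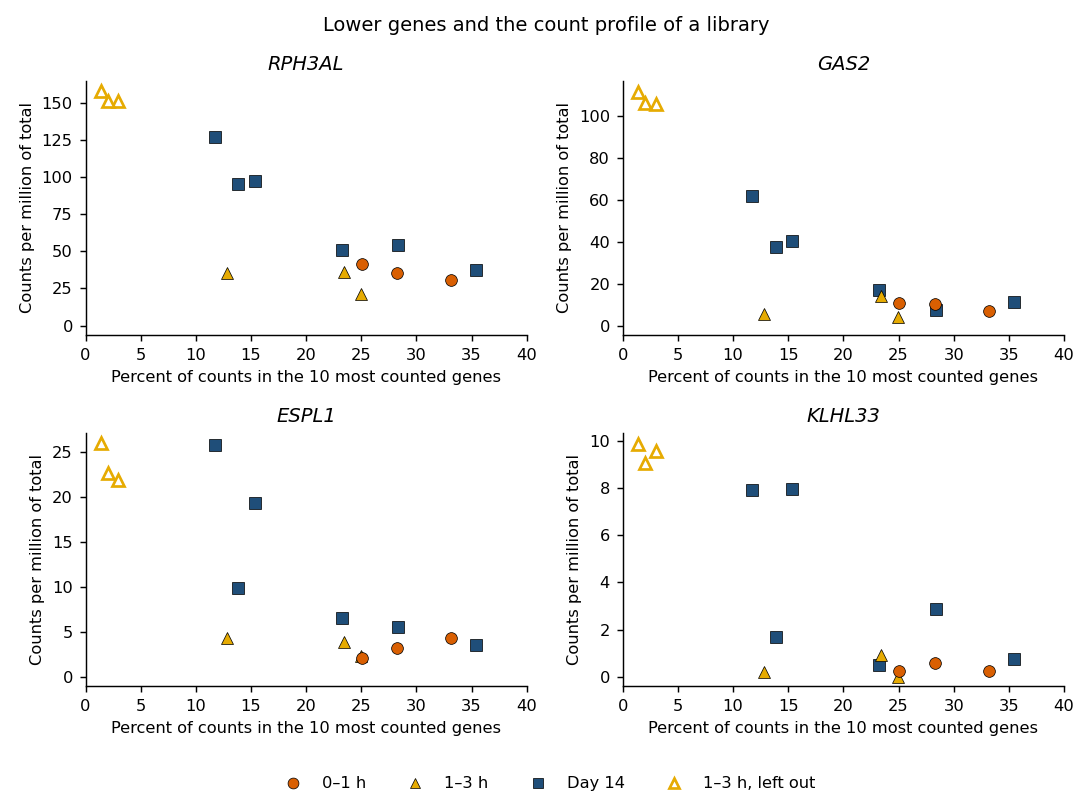
CPM without scaling factors for RPH3AL, GAS2, ESPL1 and KLHL33 against the percent of counts in the 10 most counted genes, for the 12 libraries (filled) and the 3 left-out libraries of 1–3 h (open triangles). The open triangles sit at 1.42% to 2.98% on the x axis and above all filled points for RPH3AL, GAS2 and KLHL33, while for ESPL1 a Day 14 point (25.7) lies among them.

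The remaining lists were described by counts and medians, beside 6.1% of all genes higher and 2.7% lower at an unadjusted p under 0.05. No member of any list was called by edgeR in the pooled comparison.

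Of the cytokines, chemokines and NF-kB targets, 27 were tested, 14 were higher at an unadjusted p under 0.05 and none lower, with a median of 1.29. The smallest p belonged to CCL2, IL4R and NFKB2. IL4R, the interleukin 4 receptor chain, was at 186.1, 288 and 263 CPM in the early libraries of swine 1644, at 39.1 to 55.7 CPM in the other 3 and at 18.9 to 50.7 CPM at Day 14. NFKB2 was at 55.4 to 74.1 CPM in swine 1644, 23.7 to 29.3 CPM in the others and 12.5 to 25.2 CPM at Day 14. IL6 was listed at 0 in all 85 libraries. The list's median was −0.45 within swine 1640, 1.88 within swine 1644 (4 called) and 0.06 within swine 5385. The summed neutrophil and monocyte markers (10 of 14 found, LYZ and MNDA at 0) were at 139.3 to 676 CPM early, highest in 1–3 h replicate 4, and at 133.4 to 260 CPM at Day 14, and their part in this was not tested.

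Of the coagulation and fibrinolysis genes, 10 of 20 tested were higher and none lower, with a median of 0.87 (0.19, 1.28 and 0.22 within swine 1640, 1644 and 5385). THBS1 and PLAU were among the 3 with the smallest p, and PLAUR was at 76.3, 59.6 and 22.2 CPM in swine 1644, at 3.30 to 7.24 CPM in the other early libraries and at 3.62 to 12.3 CPM at Day 14. Of 22 glucocorticoid- and fasting-responsive genes, 8 were higher and none lower, with a median of 0.44. ANGPTL4, an inhibitor of lipoprotein lipase, was at 140, 180.6 and 194 CPM in swine 1644, 21.8 CPM in swine 1640, 8.85 and 6.10 CPM in swine 5385 and 2.86 to 11.6 CPM at Day 14. CDKN1A, the p21 inhibitor of the cell cycle, was at 24.2 to 74.9 CPM in swine 1644, 7.38 to 9.01 CPM in the other early libraries and 2.68 to 9.33 CPM at Day 14. PDK4, which diverts muscle from glucose to fat, was at 432 and 868 CPM in 0–1 h replicate 1 and 1–3 h replicate 5 of swine 1644 but at 85.3 CPM in 1–3 h replicate 4, and Day 14 ran from 20.6 to 100.9 CPM. ZBTB16, a transcription factor induced by glucocorticoids, was at 36.6 to 621 CPM early and at 121.5 to 409 CPM at Day 14, with both extremes in 1–3 h libraries of swine 1644, and its log2 fold change was 0.35 ± 0.49 (SE, edgeR adjusted p = 0.761).

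Of the hypoxia-responsive genes, 9 of 24 were higher and none lower, with a median of 0.63. HMOX1, which degrades haem, was at 25.6, 99.3 and 35.5 CPM in swine 1644, 4.95 to 6.60 CPM in the other early libraries and 1.98 to 6.81 CPM at Day 14. ENO1 and PFKFB3 of glycolysis followed, at 139.5 to 286 CPM and 163.8 to 505 CPM in swine 1644. Outside that swine PFKFB3 was at 32.0 to 36.1 CPM early, inside the Day 14 range, which reached 92.1 CPM.

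Heat shock proteins and co-chaperones had 7 of 23 members higher and none lower, with a median of 0.58, and here the medians within swine 1640 (0.93) and swine 1644 (0.94) were close while that of swine 5385 was −0.06. None was called within a swine. BAG3, a co-chaperone of strained muscle, was at 216.4, 101.5 and 206.1 CPM in swine 1644, 76.6 CPM in swine 1640 and 65.6 and 49.5 CPM in swine 5385, against 28.4 to 70.1 CPM at Day 14. HSPH1 and HSPB8 were the other members with the smallest p. HSPB8, a small heat shock protein of muscle, was at 84.5 to 237 CPM early and at 27.1 to 99.7 CPM at Day 14, with overlap of the groups. Within swine 1640, cardiomyocyte markers (1.39), mitochondrial respiratory chain genes (1.30) and load and stretch genes (1.20) had higher medians than the heat shock list. Within swine 1644 those medians were −0.40, 0.28 and −0.18. The value of swine 1640 was thus not particular to heat shock genes.

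Of the extracellular matrix genes, 6 of 41 were higher and 1 lower, with a median of 0.62 (−0.51, 0.68 and 0.56 within swine 1640, 1644 and 5385). The matrix proteases ADAMTS1 and ADAMTS4 and the growth factor TGFB1 had the smallest p. ADAMTS4 was at 174.6, 52.6 and 150.9 CPM in swine 1644, at 0.804 to 3.95 CPM in the other early libraries and at 0 to 4.43 CPM at Day 14. Of the apoptosis regulators 3 of 20 were higher, GADD45A and PMAIP1 among them, with a median of 0.23. GADD45A, a sensor of DNA damage and stress, was at 37.6 to 92.9 CPM in swine 1644, 13.3 to 19.6 CPM in the others and 4.03 to 24.2 CPM at Day 14. Of the clock genes 3 of 17 were higher and 2 lower, with a median of 0.12, and BHLHE40 and NFIL3 were high in swine 1644 (up to 212.2 and 80.4 CPM). DBP, an output gene of the clock, was at 1.29 to 7.08 CPM early and at 4.43 to 17.8 CPM at Day 14. The hour of day of the biopsies is not given in the sources used here.

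Few or no members of the other lists reached an unadjusted p under 0.05. Of 21 interferon-stimulated, 22 cell cycle and 13 mitochondrial respiratory chain genes none did, and their medians were −0.16, −0.23 and 0.27. RSAD2, an antiviral enzyme, was at 5.46 to 38.9 CPM early, and at Day 14 it was at 181.7 and 127.1 CPM in swine 5385 and at 9.55 to 35.7 CPM in the other 2 swine. The fatty acid oxidation list had 1 of 23 members higher with a median of 0.03, and the load and stretch list 3 of 23 (RCAN1, SRF and XIRP1) with a median of 0.18. NPPB, the natriuretic peptide of strained ventricle, was at 5.85 to 68.2 CPM early and at 0.237 to 117.98 CPM at Day 14. ANKRD1, another stretch gene, was listed at 0 in all 85 libraries, 1 of 31 such members among the 367 found by symbol over all lists.

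Among the cell type marker lists, members higher at an unadjusted p under 0.05 were 2 of 11 endothelial, 1 of 10 smooth muscle and pericyte and 1 of 6 neutrophil and monocyte genes. Members lower were 1 of 4 erythroid, 1 of 13 lymphocyte and 2 of 7 adipocyte genes. None of 14 cardiomyocyte, 11 fibroblast, 12 macrophage, 5 platelet and 5 atrial genes reached it. The 5 genes that the study lists as leading in its outlier biopsies, which it took to be fibrous, had a median of 0.56, and none reached it either.

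**Figure D4:**
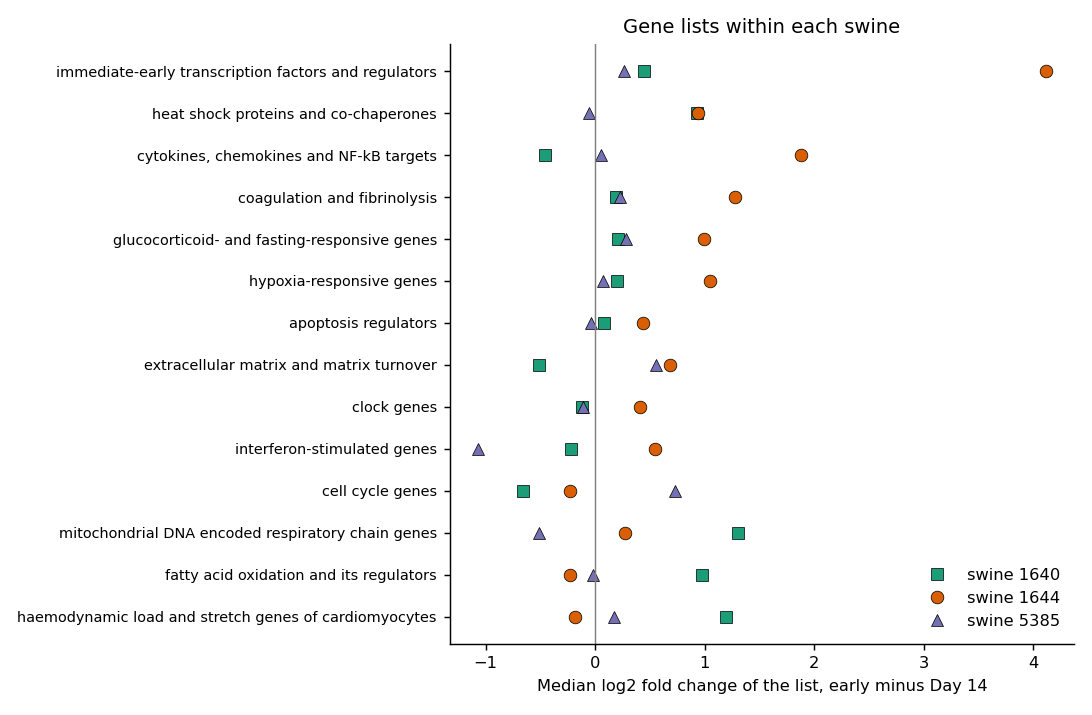
Median log2 fold change (early minus Day 14) of the tested members of 14 gene lists within each swine (squares swine 1640, circles swine 1644, triangles swine 5385). The immediate-early list stands at 4.12 in swine 1644 and at 0.44 and 0.26 in swine 1640 and 5385, and the heat shock list at 0.94, 0.93 and −0.06.

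The early timepoints were also compared with Day 14 one by one, in a fit of 3 groups that share the Day 14 libraries. At 0–1 h (1 library from each swine) no gene was called, and 335 (1.78%) were higher and 0.787% lower at an unadjusted p under 0.05. FOSB (log2 fold change 6.15), CBARP (1.94) and ERRFI1 (4.10) had the smallest p among higher genes and PLA2R1 (−1.35), COMP (−3.21) and CDCA2 (−1.57) among lower ones (edgeR adjusted p = 0.978). DESeq2 called FOSB alone (6.09). At 1–3 h (2 libraries of swine 1644 and 1 of swine 5385) no gene was called, and 1331 (7.08%) were higher and 184 (0.979%) lower at an unadjusted p under 0.05. PLAU (3.91), DUSP1 (4.17) and HMOX1 (3.58) led the higher genes and DBP (−2.18), RPH3AL (−0.99) and NR1D1 (−1.92) the lower ones (edgeR adjusted p = 0.352). Without the 1–3 h library of swine 5385, which left only swine 1644, edgeR called 0.719% of the genes, 4 of them lower and the rest higher. The immediate-early median was 2.75 at 0–1 h and 3.44 at 1–3 h.

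Between 1–3 h and 0–1 h no gene was called (edgeR, smallest adjusted p = 1, and 0 with DESeq2), with 0.878% of the genes higher and 24 (0.128%) lower at an unadjusted p under 0.05. GFAP, GRAMD1B and S1PR3 led the higher genes. GFAP and S1PR3 were at 752 and 201.2 CPM in 1–3 h replicate 4 and at most 9.17 and 32.0 CPM in the other 11 libraries. FOSB was at 712 CPM at 0–1 h and at 58.8 and 78.8 CPM at 1–3 h within swine 1644.

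The same contrast was made in the infarcted, apical region with 14 early and 7 Day 14 libraries of the same swine, to see whether the time difference differed between the regions. The apical early libraries held more of 1–3 h than of 0–1 h, unlike the lateral ones. In the apical region 2 genes rose (0.0108% of 18603) and 2 fell (0.0108%). The study compared single timepoints of this region with baseline and reported many regulated genes at 1–3 h. The pooled contrast with Day 14 is a different comparison, and its few calls do not show a weak response in the infarct. CRIM1, a modulator of growth factor secretion, rose by 1.86 on the log2 scale, and the clock gene BMAL1 by 1.65. ADAMTSL2 and IGF1 fell by 2.43 and 1.69. The region by time interaction called no gene (edgeR, smallest adjusted p = 0.655, and 0 with DESeq2), with 977 genes (5.25%) at an unadjusted p under 0.05. In signed log2 fold changes, apical minus lateral, the smallest p belonged to C1orf232 (4.35), CRACDL (4.06), CRIM1 (1.63), SEMA6B (1.47) and CNIH3 (0.97) among positive values and to GFAP (−6.54), TOB1 (−1.57), NGFR (−4.94), EMC10 (−1.03) and APOA1 (−3.62) among negative ones. C1orf232 was at −3.28 in the lateral and 1.07 in the apical region. GFAP, NGFR and APOA1 were high in 1–3 h replicate 4, at 752, 172.3 and 2010 CPM.

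For MYC the log2 fold change was 4.05 in the lateral and 2.57 ± 0.80 in the apical region, a difference of −1.48 ± 1.13 (SE, edgeR adjusted p = 0.66). Apical early libraries reached high values in every swine, with MYC at 28.02 to 221 CPM in swine 1640 (5 libraries), 8.02 to 337 CPM in swine 1644 (4) and 8.08 to 220 CPM in swine 5385 (5). In the lateral region the early libraries of swine 1640 and 5385 were at 4.81 to 8.36 CPM. An apical Day 14 library of swine 1644 was also high, with MYC at 98.1 CPM. For PLAU the apical log2 fold change was 2.65 ± 0.65 (adjusted p = 0.0991) and the regional difference −0.65 ± 0.92. For MYC and PLAU these errors leave room for both equal and clearly unequal differences. For FOS the log2 fold change was 0.51 ± 0.79 apically, where Day 14 libraries reached 229 CPM in swine 1644 and 228 CPM in swine 5385, and the regional difference was −3.97 ± 1.28 (adjusted p = 0.655). HOOK2 was at 0.29 ± 0.35 in the apical and 1.49 in the lateral region, and NR1D1 at −1.53 ± 0.32 and −1.50.

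**Figure D5:**
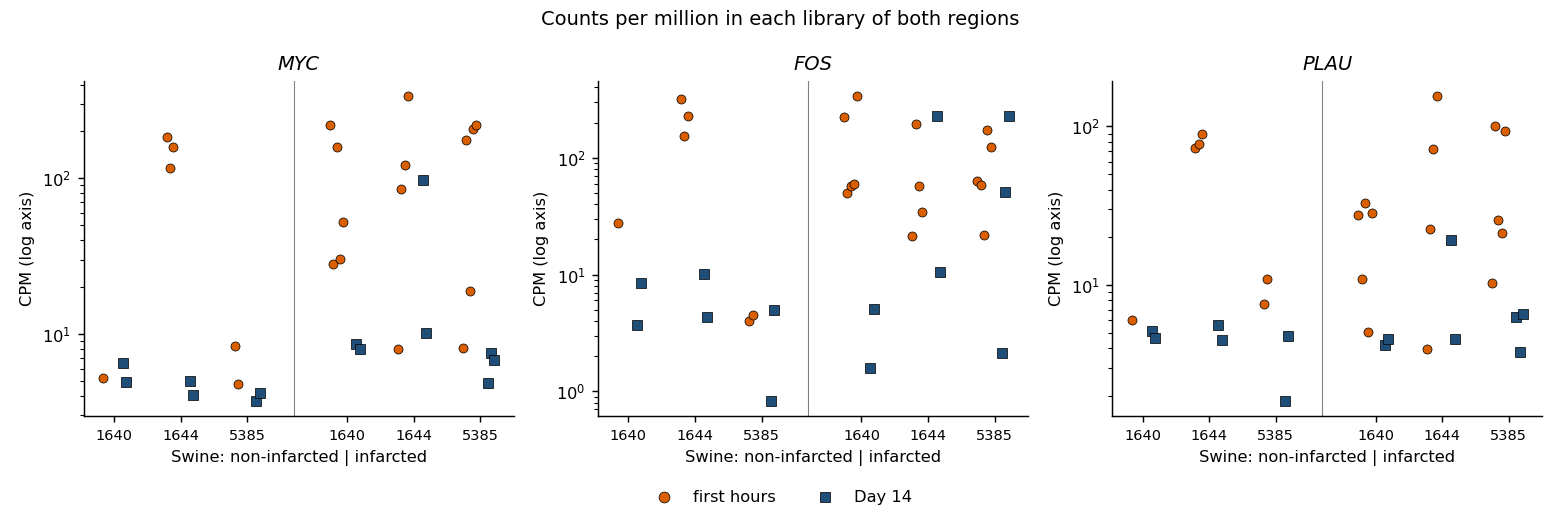
CPM (log axis) of MYC, FOS and PLAU in each early (circles) and Day 14 (squares) library, by swine, for the non-infarcted region on the left and the infarcted region on the right of each panel. In the non-infarcted region only swine 1644 has early MYC points above 100 CPM (116.8 to 184), whereas in the infarcted region each of the 3 swine has one (up to 221, 337 and 220 CPM).

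The 28 genes that the study lists for 0–1 h in its infarcted region were chosen on other libraries of the same animals and are no independent evidence. In the lateral libraries all 28 were tested, 25 were higher at an unadjusted p under 0.05 and 18 were called by DESeq2, with a median log2 fold change of 3.36. Within swine 1644 the median was 4.09 (12 called), and within swine 1640 and 5385 it was 0.70 and 0.42. Their mean log2 CPM per early library was 6.03 to 7.25 in lateral swine 1644, 3.54 in swine 1640 and 2.69 to 2.72 in swine 5385. In the apical early libraries it was 4.21 to 7.76, 3.28 to 7.003 and 2.67 to 7.10 in swine 1640, 1644 and 5385, and at most 5.85 in an apical library of Day 14 (swine 1644).

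Biopsies taken at other times gave a further level to set these values against. In the 4 baseline libraries, taken before the occlusion and labelled apical, MYC was at 1.59 to 13.7 CPM and FOS at 8.12 to 17.8 CPM. In the 4 lateral libraries of Day 2 that passed the same rule, MYC was at 6.14 to 8.45 CPM. The early lateral libraries of swine 1644 were above all of these values.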

How the data were processed

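RNA of micro-EMB was prepared as total RNA with a stranded kit, and the authors deposited raw counts per Ensembl gene, made on Sscrofa11.1 with STAR and with featureCounts, which was set to ignore strand. Reads of genes that overlap on opposite strands therefore could not be told apart by strand. Of 86 named genes placed on the assembly, 24 overlap such a gene by their RefSeq spans, introns included. How reads that hit both genes were handled is not given, and any effect on these genes was not tested. Gene values of 0 in all libraries (5461 genes, 1036 with a symbol) may come from the annotation or counting. Versions are not given in the sources used here. Symbols were found for 15029 of 31907 genes. Totals per library of 5184915 to 10888848 counts set the precision, and reads of the same molecule were not marked.

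The members and lists were chosen with earlier results of these data known. Libraries were grouped by the labels for region, timepoint and swine. The 45 heart libraries that passed the same rule, these 12 among them, served as context. Genes that reached a CPM of 1 in 3 or more of the 12 libraries (20%) were tested with edgeR 4.0.16 in R 4.3.3 (TMM, quasi-likelihood test, timepoint as the only term) and Benjamini-Hochberg adjustment, with 0.05 as the threshold. Log2 CPM used a prior count of 2. Each SE given with an edgeR log2 fold change was its absolute value divided by the square root of the quasi-likelihood F statistic. DESeq2 1.42.0, limma 3.58.1 with voom, other normalization and filters, the swine as a block and libraries left out were the alternatives. The groups share animals, so the block pairs them by the labels. Deviations from the group means correlated by 0.029 on average between early and Day 14 libraries of the same swine (12 pairs). For early and Day 14 libraries of different swine the average was −0.018 (24 pairs). Biopsies of the same heart at the same time were not among these pairs. The p-values treat libraries as replicates. No 2 libraries were identical, and the closest correlated at 0.966. The tests were tried on simulated counts.

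Named genes were, for the main comparison, the 10 with a symbol and the smallest p in each direction (fewer than 5 in a direction were called), the 3 members of each list with the smallest p, ZBTB16, and for the other fits the 3 (5 for interactions) with the smallest p in each direction. Some genes that meet this rule are not reported here. Others, such as FOS, EGR1, IL6 and ANKRD1, were named for their roles after their values were seen. Promoters were the 250 bases before RefSeq gene starts. The value columns without a sample numbered 0.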

Additional observations from a re-analysis of the deposited data

Results flagged for a closer look

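A sample far from the others of its group was found in 8 groups of values, 5.97% of the groups tested (Dixon's ratio, which chance exceeds in about 1 in 20), so their number is near what chance gives. The library of 1–3 h replicate 4 had 3 of these. NUSAP1, of the mitotic spindle, was at 75.3 CPM there against 42.5 to 52.2 CPM in the other early libraries. COX2, the mitochondrial oxidase subunit, was at 638 CPM against 2672 to 4849 CPM, and the summed endothelial markers were at 738 CPM against 1584 to 2318 CPM. LBX2 was at 0.0859 CPM in 1–3 h replicate 6 and at 0 in the other early libraries. At Day 14, PLAU was at 1.86 CPM in replicate 4 against 4.48 to 5.58 CPM, IL4R at 18.9 CPM in replicate 6 against 38.0 to 50.7 CPM and HSPH1 at 24.9 CPM in replicate 1 against 12.6 to 14.0 CPM. The summed smooth muscle and pericyte markers were at 374 CPM in Day 14 replicate 2 against 776 to 1044 CPM. Causes were not tested.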

How the results depend on the processing

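For the first hours against Day 14, edgeR called 0 genes as reported, with the swine as a replicate block (577 genes at an unadjusted p under 0.05), with voom, with upper-quartile scaling, without the filter on low counts, with swine 1640, 1644 or 5385 left out, with the top-10 share as a covariate and with all lateral libraries of these times. In percent of the genes fitted, DESeq2 called 0.692% (130 genes), with the block 0.0532% (10) and without swine 1644 0.00551% (1). Counts summed per swine gave 0.0155% with the block (FOSB, ARC and BICDL2), and the contrast within swine 1644 gave 0.341% (64). Leaving out 1 library gave 0% to 0.407%, with 0% for each library in the pooled edgeR fit, 0.252% (47) with DESeq2 and 76 within swine 1644 without 1–3 h replicate 4. DESeq2 called 0.00532% (1) for 0–1 h and 0.298% (56) for 1–3 h, and leaving out 1 library gave 0% to 0.719% for 1–3 h, the highest without replicate 6. The swine interaction gave 0.702% (132) with the DESeq2 likelihood ratio test and 0.112% (29) without the filter. The block changed no other call. DESeq2 and upper-quartile scaling moved the median log2 fold change of all genes from −0.08 to −0.21.

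Among the 54 named genes, signs turned without swine 1644 for BHLHE40 (−0.18, and −0.23 with DESeq2), NFIL3 (−0.11 and −0.16), CCL2 (−0.12 and −0.17) and PFKFB3 (−0.56 and −0.62), without swine 1640 for COX2 (−0.043) and without swine 5385 for RSAD2 (0.14). With all lateral libraries they turned for GAS2 (0.088), CDK1 (0.40), BUB1 (0.24), SLC27A1 (−0.068), OASL (0.42), ND1 (−0.16), ND3 (−0.20) and COX2 (−0.24). The cause was not tested. The 3 hearts, with 3 to 5 libraries each, limit the precision, and a p above the threshold does not show equal levels.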
